A study of Mus musculus with 18 samples.

Results

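The genes described here are 37 genes of autophagy, measured by RNA-seq in bone marrow-derived macrophages (BMDMs) of WT and IRF5 KO mice. They were chosen by symbol, as the genes of initiation, of conjugation to lipid and of cargo reception, and all 37 were found among the 50600 genes counted in the series. BMDMs were grown with GM-CSF for 8 days. They were pretreated for 1 h with DMSO or with 3.5 μM defactinib, an inhibitor of the kinases PYK2 and FAK, and were then stimulated with 100 ng/ml LPS for 2 h or left unstimulated. Each genotype gave 3 groups of 3 libraries, 18 in all: unstimulated cells, cells given DMSO and LPS (LPS DMSO), and cells given defactinib and LPS (LPS defactinib). WT and IRF5 KO differ by the loss of IRF5, a transcription factor of inflammatory genes. The labels call the unstimulated libraries DMSO treated and the column names mark them untreated, and no group had defactinib without LPS. The 3 libraries of a group are given as biological replicates.

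Autophagy encloses cytoplasm in a double membrane, the autophagosome, which then fuses with the lysosome. The ULK kinase complex starts the process, and a PI3-kinase complex around Beclin 1 marks the membrane with the lipid PI3P. PI3P-binding WIPI proteins, the lipid carrier ATG2 and the scramblase ATG9 let the membrane grow. A chain of conjugating enzymes then fixes ubiquitin-like ATG8 proteins (LC3 and GABARAP) to the membrane, where they hold cargo receptors such as p62. In macrophages autophagy clears bacteria and damaged mitochondria and limits inflammasome signalling. RNA levels report the supply of these proteins and not autophagic flux.

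Between 39282181 and 61949143 read pairs were counted per library, and the 37 genes together took 0.279% to 0.369% of them. Irf5 was at 587, 606 and 650 CPM (counts relative to the TMM-scaled library size) in WT unstimulated libraries and at 335, 397 and 364 CPM in IRF5 KO unstimulated libraries (log2 0.75 for WT minus IRF5 KO, adjusted p = 0.00492). After LPS it was at 434, 475 and 443 CPM in WT and 435, 431 and 345 CPM in IRF5 KO, and after LPS with defactinib at 213, 234 and 379 CPM in WT and 364, 392 and 353 CPM in IRF5 KO (log2 -0.42, adjusted p = 0.0545). Counts over the whole gene thus separated the genotypes before LPS and did not do so after it, where they do not check the labels. All 8 macrophage markers were measured, and their sum was 18205 to 19152 CPM in IRF5 KO LPS defactinib, 9897 to 12387 CPM in IRF5 KO LPS DMSO and 9740 to 15126 CPM in the other groups, while lymphocyte markers summed to at most 1.02 CPM. Lyz2 alone was at 7705 to 15899 CPM over the libraries, and each other macrophage marker reached at most 1212 CPM. The mast cell and basophil list summed to 7.89 to 15.5 CPM in WT and 42.7 to 72.4 CPM in IRF5 KO. Gata2 (at most 51.5 CPM) and Kit (at most 20.8 CPM) carried this sum, while Cpa3 reached 1.07 CPM, Mcpt8 0.477 CPM, Ms4a2 0.137 CPM and Fcer1a 0.0485 CPM. The neutrophil list summed to 50.8 to 70.4 CPM in WT unstimulated, 109 to 211 CPM in WT LPS DMSO and 109 to 143 CPM in WT LPS defactinib, against 62.1 to 72.8, 137 to 157 and 135 to 160.0 CPM in the same groups of IRF5 KO. The dendritic cell list summed to 117 to 125 CPM in WT unstimulated, 381 to 494 CPM in WT LPS DMSO and 68.8 to 123 CPM in WT LPS defactinib, against 124 to 169.6, 214 to 276 and 271 to 282 CPM in IRF5 KO. The part of other cell types in the results was not tested. In bulk RNA fewer cells of a type and less RNA per cell cannot be told apart.

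The 3 IRF5 KO LPS DMSO libraries stood apart from each other. The median absolute log2 difference over the 37 genes was 0.052 between replicates 1 and 2 but 0.517 and 0.548 between each of them and replicate 3, with 6 and 7 genes beyond 2-fold. No pair of libraries in any other group had 1 of the 37 genes beyond 2-fold. Among all genes 27.1% and 27.2% were beyond 2-fold between replicates 1 and 2 and replicate 3. In pairs of the other groups the share was 2.89% to 15.2%. Replicates 1 and 2 were nearest to IRF5 KO LPS defactinib (medians 0.127 and 0.115), and replicate 3 was nearest to WT unstimulated (0.139) and IRF5 KO unstimulated (0.180). The noncoding RNA Gm26917 took 2.57% and 2.56% of the counts in replicates 1 and 2 and 0.0125% in replicate 3. Elsewhere its share was 2.18% to 4.15% in the WT libraries with defactinib, 1.06% to 1.70% in the IRF5 KO libraries with defactinib and at most 0.0154% in the others. Over all genes replicate 3 was nearer to IRF5 KO unstimulated (median 0.234) than to WT unstimulated (0.326). The counts that use IRF5 KO LPS DMSO, and the values of the genes called with it, are therefore given also without replicate 3 and with replicate 3 alone, the latter assumed to vary as the other groups do. Over genes with at least 20 counts in a pair, the chi-square per gene was 2.33 between replicates 1 and 2, where counting error alone gives about 1. It was 441 and 425 between them and replicate 3, and 3.82 to 183 for pairs in the other groups. The fit without replicate 3 thus has a close pair in this group. Which of these libraries match their labelled treatment cannot be told from the counts, and what separated them was not tested.

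**Figure D1:**
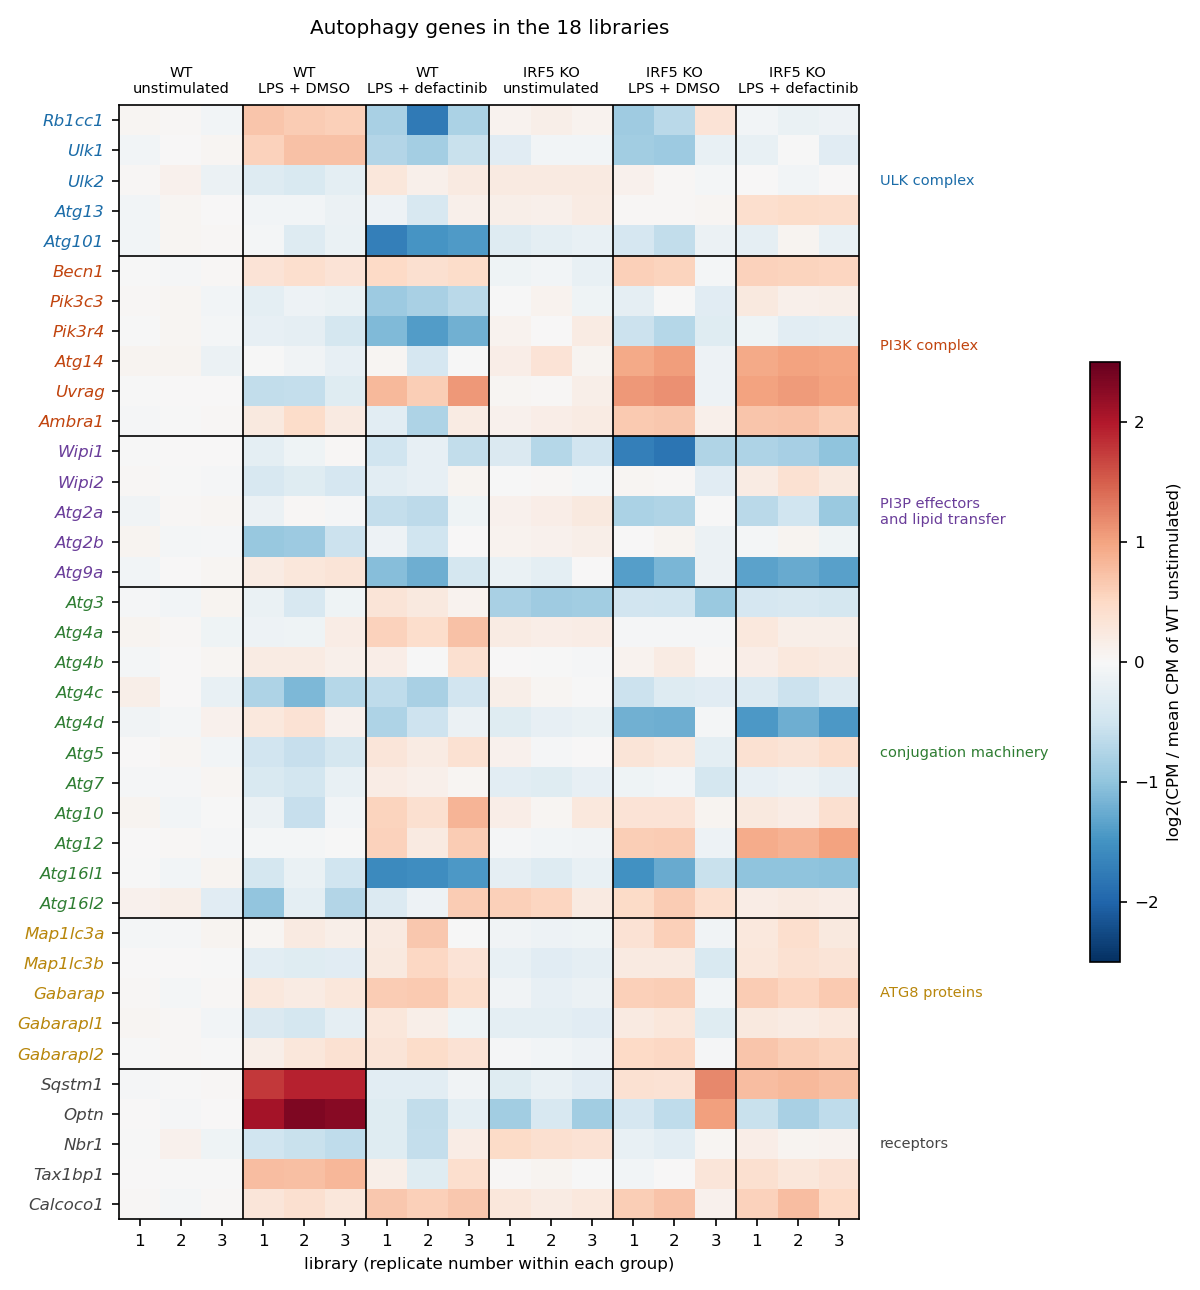
Colour gives log2 of CPM over the mean of WT unstimulated for each of the 37 genes (rows, grouped by role) in each of the 18 libraries (columns). Sqstm1 and Optn are highest in the 3 WT LPS DMSO libraries, and among the IRF5 KO LPS DMSO libraries replicate 3 differs from replicates 1 and 2.

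Levels between genes were compared per exon length, as RPKM (mean ± SD, n = 3). In WT unstimulated cells Gabarap was highest at 282 ± 7.59 RPKM, followed by the receptor gene Sqstm1 at 161 ± 3.73 RPKM and by Gabarapl1 at 79.9 ± 3.71 RPKM. Atg3, the E2-like enzyme that attaches ATG8 proteins to lipid, followed at 51.2 ± 2.57 RPKM. The levels of these genes were separated by far more than their SD, whereas Tax1bp1 (19.4 ± 0.0953 RPKM) and Atg12 (19.2 ± 0.381 RPKM) were within 1 SD of each other. Among the initiation genes Ulk1, Rb1cc1 and Pik3r4 lay low in this order. Ulk1 had 2.84 ± 0.123 RPKM, Rb1cc1 2.53 ± 0.115 RPKM and Pik3r4 2.35 ± 0.0915 RPKM. Atg16l2 was the lowest, at 0.388 ± 0.0602 RPKM. After LPS Sqstm1 was at the top of the order in WT cells, at 588 ± 37.6 RPKM.

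**Figure D2:**
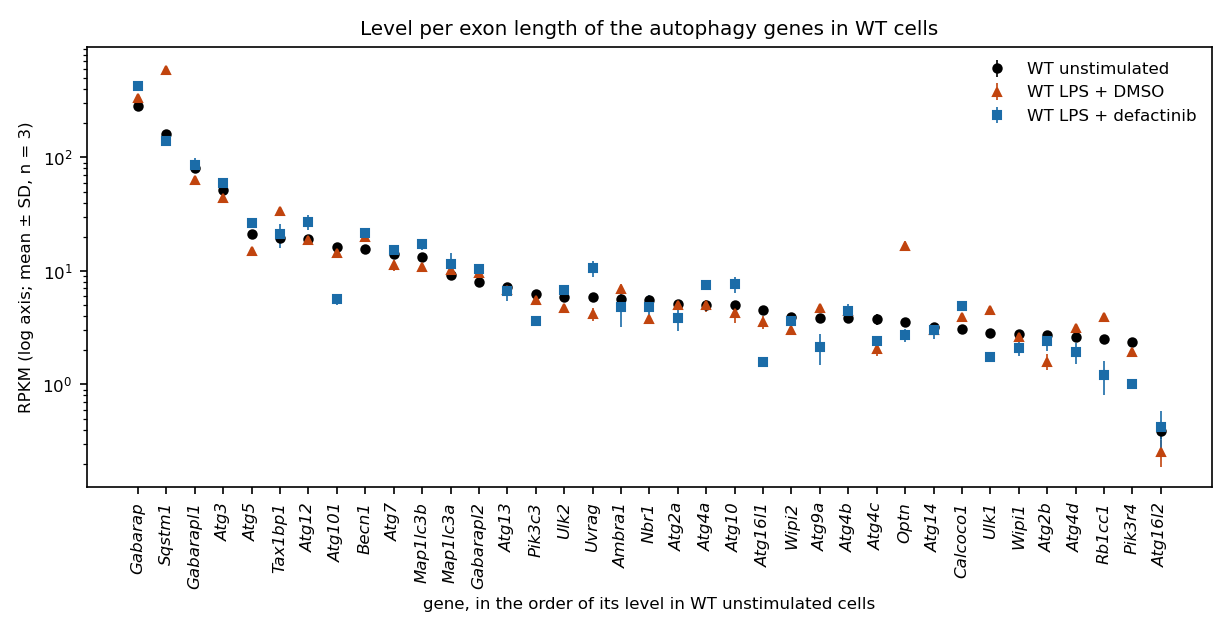
RPKM on a log axis (mean ± SD, n = 3) for the 37 genes in the 3 WT groups, ordered by the level in unstimulated cells. Gabarap and Sqstm1 lead in all 3 groups, and Optn stands at 16.7 RPKM with LPS and DMSO against 3.55 RPKM in unstimulated cells.

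The first comparison asks which autophagy genes respond to LPS in WT BMDMs. LPS raised 4 of the 5 receptor genes, though Calcoco1 no longer passed on leaving out any of 16 of the 18 libraries. Among the 37, no gene of the machinery changed by more than 2-fold. Of the 37 genes, 6 rose and 8 fell (edgeR's quasi-likelihood test, adjusted p below 0.05 over 15663 genes), where 20.6% of all genes rose and 21.2% fell. At more than 2-fold, the threshold called here, 2 of 37 were called, Sqstm1 and Optn, where 21.3% of all genes were called in either direction. The median log2 change was -0.10 over the 37 genes and -0.0045 over all genes.

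Sqstm1 encodes p62, the receptor that links ubiquitinated cargo to LC3. It was at 533, 534 and 555 CPM in unstimulated libraries and at 1828, 2041 and 2052 CPM with LPS. Every LPS library thus lay above every unstimulated library, and the change was 3.65-fold (log2 1.87 ± 0.17 SE, adjusted p = 4.31e-07). Optn encodes optineurin, a receptor for damaged mitochondria and for Salmonella that is a substrate of the kinase TBK1. Its level was 13.4, 13.1 and 13.4 CPM in unstimulated libraries and 56.2, 67.2 and 64.1 CPM with LPS, a 4.69-fold rise (log2 2.23 ± 0.31 SE, adjusted p = 3.81e-05). The other receptors moved less: Tax1bp1, which also binds ubiquitin, rose by 0.79 on the log2 scale (193 to 195 CPM before and 326 to 345 CPM after LPS), Calcoco1 rose by 0.33 at an adjusted p of 0.0498 (-0.0458 where libraries were scaled by their size alone) and no longer passed on leaving out any of 16 of the 18 libraries, and Nbr1 fell by 0.56 (35.7 to 41.2 CPM before and 24.6 to 27.0 CPM after).

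The bases before the start of Sqstm1 and Optn are shown because these genes had the largest changes both with LPS and with defactinib in WT cells. The windows are the 250 bases upstream of the RefSeq start on GRCm38.p6, each on the minus strand and written 5′ to 3′, for Sqstm1 at chr11:50210821-50211070 and for Optn at chr2:5064118-5064367. Capitals mark a match to GGGANNNNCC, letters like those bound by NF-κB, on either strand.
Sqstm1: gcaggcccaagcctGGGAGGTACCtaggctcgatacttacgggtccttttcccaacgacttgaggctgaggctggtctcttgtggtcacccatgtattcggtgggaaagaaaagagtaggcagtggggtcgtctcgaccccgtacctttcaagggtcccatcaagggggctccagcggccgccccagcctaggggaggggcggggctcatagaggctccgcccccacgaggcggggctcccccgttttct
Optn: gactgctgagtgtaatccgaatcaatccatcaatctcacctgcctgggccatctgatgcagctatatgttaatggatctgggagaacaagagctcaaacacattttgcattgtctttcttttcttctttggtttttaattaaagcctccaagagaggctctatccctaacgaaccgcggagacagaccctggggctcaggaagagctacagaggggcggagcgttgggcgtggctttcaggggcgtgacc
The Sqstm1 window held 1 match and the Optn window 0, and 17.6% of 32851 RefSeq windows of this length held at least 1. Of the 31 autophagy genes with a window in the table, 4 held a match (Atg16l2, Atg3, Sqstm1 and Tax1bp1). Letters like an interferon response element (GAAANNGAAA) were in 0 of 31 windows and in 2.98% of all, and the core of an antioxidant response element (TGACNNNGC) in 3 of 31 (Atg13, Tax1bp1 and Ulk2) and 10.2% of all. The E-box CACGTG was in 3 of 31 (Atg3, Atg5 and Atg7) and 6.02% of all. Neither printed window held the last 3 motifs. A match is a description of letters and not a binding site, and more distant sequence was not read.

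Outside the receptors, LPS moved single genes of each complex in WT cells. Ulk1, the kinase that starts autophagosome formation, rose from 17.5, 18.6 and 19.1 CPM to 27.5, 30.4 and 30.7 CPM (log2 0.68 ± 0.16 SE, adjusted p = 0.00286), and its homologue Ulk2 fell by 0.31 on the log2 scale. Becn1, which encodes Beclin 1, rose from 110, 108 and 112 CPM to 139, 146 and 140 CPM (log2 0.36 ± 0.12 SE, adjusted p = 0.0238). It no longer passed on leaving out any of 4 libraries, and its change was -0.0152 where libraries were scaled by their size alone. Rb1cc1, the scaffold FIP200 of the ULK complex, was at 35.3 to 38.5 CPM before and 56.3 to 60.4 CPM after LPS and did not pass the test (log2 0.64 ± 0.26 SE, adjusted p = 0.0597). The groups did not overlap for Rb1cc1.

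The lipid carrier gene Atg2b fell by 0.78 on the log2 scale and the PI3P-binding Wipi2 by 0.37. Of the 11 conjugation genes, 3 fell and 0 rose, where 21.2% of all genes fell and 20.6% rose. The 3 were Atg4c, a protease that processes ATG8 proteins (log2 -0.86 ± 0.14 SE), Atg5, which forms a conjugate with ATG12 (-0.50 ± 0.12), and Atg7, the E1-like enzyme (-0.34 ± 0.10). Atg7 no longer passed without replicate 2 of WT LPS DMSO (-0.28). Among the 5 ATG8 genes 1 passed the test. Gabarapl1 fell from 167, 163 and 153 CPM to 125, 119 and 138 CPM (log2 -0.34 ± 0.13 SE, adjusted p = 0.0436), and no longer passed on leaving out any of 8 of the 18 libraries. Map1lc3b, the LC3 gene most used as a marker of autophagosomes, was at 100.5, 99.7 and 98.3 CPM before and 82.6, 81.2 and 81.8 CPM after LPS (log2 -0.28 ± 0.12 SE, adjusted p = 0.0843). It passed as lower without replicate 3 of IRF5 KO LPS DMSO, a library outside this comparison. The change was -0.29 with replicate 3 of that group alone.

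The second comparison asks how defactinib changes the LPS response of WT cells. It shares the 3 WT LPS DMSO libraries with the first, so the values of the comparisons are not independent. With defactinib 15 of 37 genes rose and 12 fell, where 28.4% of all genes rose and 28.6% fell. In all, 8 of 37 were called, where 29.1% of all genes were called. The called genes were Optn, Sqstm1, Rb1cc1, Ulk1, Atg101, Atg16l1 and Atg9a, which fell, and Uvrag, which rose. The median log2 change was 0.10 over the 37 genes and 0.09 over all genes. The share called was below that among all genes, a difference that was not tested. Gm26917 took 2.18% to 4.15% of the counts with defactinib and at most 0.0122% with DMSO, and protein-coding genes took 89.1% to 91.6% against 95.9% to 96.0%. Malat1 took 0.0698% to 0.0934% against 0.0149% to 0.0229%, and mitochondrial mRNA 0.926% to 1.14% against 0.612% to 0.837%. Neat1 was lower, at 0.0148% to 0.0167% against 0.0268% to 0.0556%. The part of these shares in the results was not tested.

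**Figure D3:**
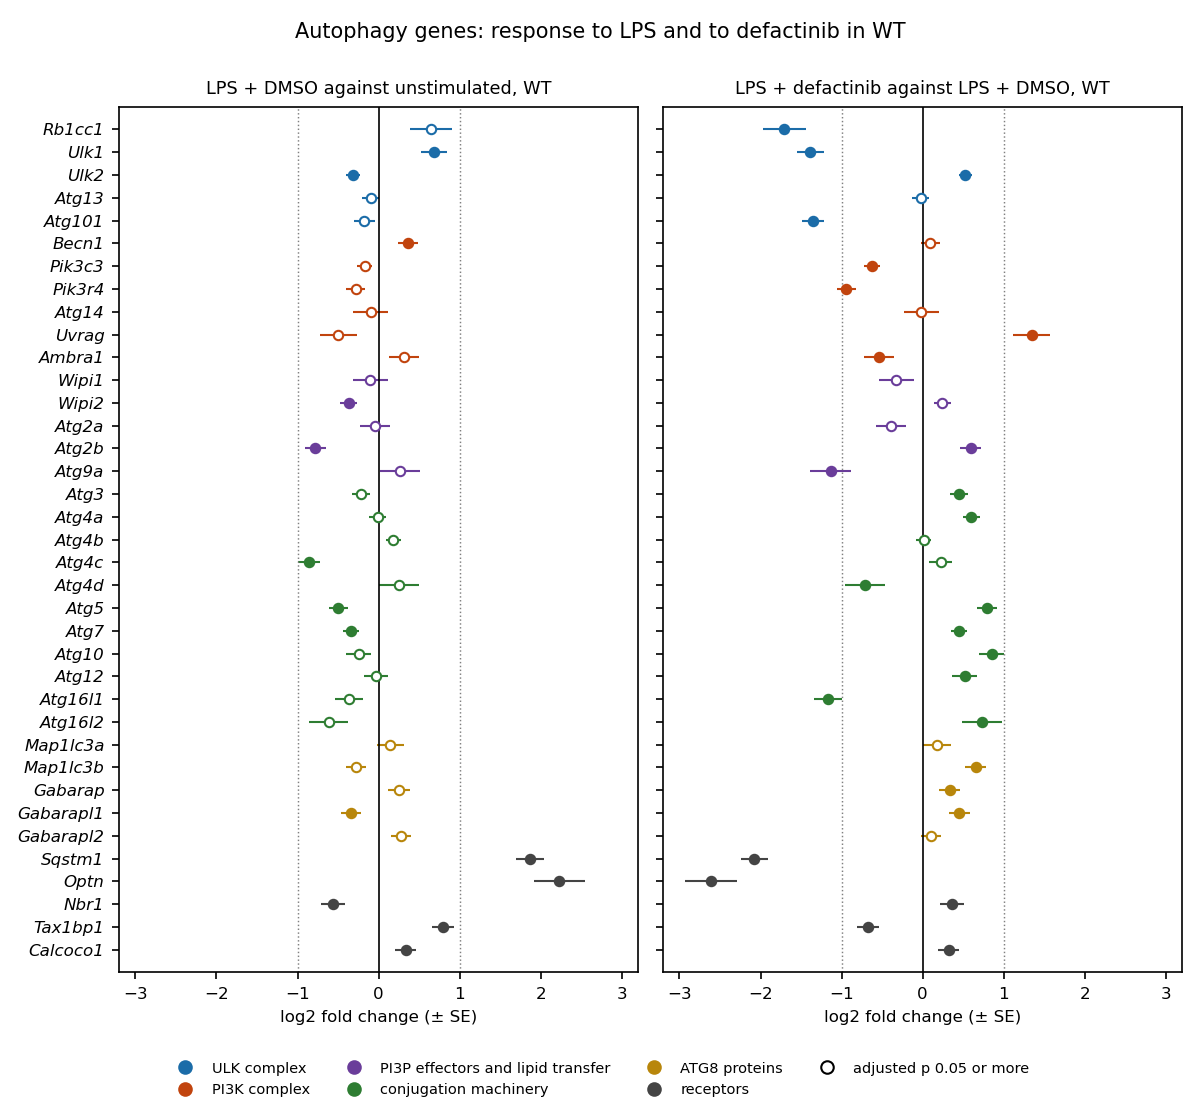
Log2 fold changes (± SE, edgeR) of the 37 genes for LPS against unstimulated (left) and for defactinib against DMSO after LPS (right) in WT cells. Filled points have an adjusted p below 0.05, colours give the role, and dotted lines mark 2-fold; Sqstm1 and Optn lie beyond 2-fold in both panels.

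Sqstm1 was at 449, 449 and 506 CPM with defactinib, against 1828, 2041 and 2052 CPM with DMSO (log2 -2.08 ± 0.17 SE, adjusted p = 1.45e-07). Optn was at 10.8, 8.73 and 11.2 CPM, against 56.2, 67.2 and 64.1 CPM (log2 -2.61 ± 0.32 SE, adjusted p = 8.63e-06). For both, every library with defactinib lay below every unstimulated WT library as well, a pair of groups that was not tested. Tax1bp1 fell by 0.67 on the log2 scale, with 157 to 259 CPM against 326 to 345 CPM. Nbr1 rose by 0.36 and Calcoco1 by 0.32, at adjusted p-values of 0.0466 and 0.0448, so all 5 receptor genes passed the test with all libraries. Nbr1 no longer passed on leaving out any of 10 of the 18 libraries, and Calcoco1 on leaving out any of 11.

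The ULK complex was the role with the lowest median, -1.35 on the log2 scale over its 5 genes. Rb1cc1 was at 21.2, 10.9 and 21.4 CPM with defactinib against 60.4, 57.7 and 56.3 CPM with DMSO (log2 -1.70 ± 0.27 SE, adjusted p = 8.23e-05). Ulk1 was at 11.1, 10.2 and 12.5 CPM against 27.5, 30.4 and 30.7 CPM (log2 -1.39 ± 0.16 SE, adjusted p = 5.79e-06). Atg101, which encodes a partner of ATG13 in this complex, was at 6.12, 7.19 and 7.50 CPM against 19.2, 16 and 17.8 CPM (log2 -1.35 ± 0.13 SE, adjusted p = 9.47e-07). These genes had no overlap between the groups, though the share of all genes without overlap was not counted. LPS itself gave Atg101 a log2 change of -0.17 ± 0.13 SE that did not pass the test. Ulk2 rose by 0.53, and Atg13 had a log2 change of -0.02 ± 0.10 SE.

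The PI3-kinase genes split. Pik3c3, the catalytic subunit VPS34, fell by 0.62 on the log2 scale, Pik3r4, its regulatory subunit VPS15, by 0.94, and Ambra1, a Beclin 1 partner, by 0.54. Ambra1 no longer passed without replicate 2 of WT LPS DMSO or without replicate 1 or 2 of WT LPS defactinib, and its change lay between -0.80 and -0.32 as each library was left out in turn. Uvrag, the Beclin 1 partner of the complex that acts in endosome traffic and autophagosome maturation, was at 93.1, 81.0 and 111 CPM with defactinib against 34.3, 35.0 and 43.0 CPM with DMSO (log2 1.35 ± 0.23 SE, adjusted p = 0.000159). It lay at 52.3 to 53.1 CPM in unstimulated WT cells. Becn1, at 156, 145 and 152 CPM against 139, 146 and 140 CPM, did not pass the test (log2 0.09 ± 0.12 SE, adjusted p = 0.517). Atg14, the subunit that directs the complex to autophagy, was at 11.5, 8.35 and 11.1 CPM against 11, 10.5 and 9.68 CPM (log2 -0.01 ± 0.22 SE, adjusted p = 0.961).

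Among the membrane genes Atg9a, the scramblase of the vesicles that seed autophagosomes, was at 10.7, 9.65 and 16.4 CPM with defactinib against 25.7, 27.0 and 27.8 CPM with DMSO (log2 -1.13 ± 0.25 SE, adjusted p = 0.00128). A neighbouring transcript on the same strand, Gm29253, covers 31.8% of its exon bases, and read pairs there were assigned to neither gene. Atg2b rose by 0.59. Of the 11 conjugation genes 7 rose (Atg3, Atg4a, Atg5, Atg7, Atg10, Atg12 and Atg16l2) and 2 fell (Atg16l1 and Atg4d), where 28.4% of all genes rose and 28.6% fell. The rise of Atg16l2 (0.73, between 0.41 and 0.99 as each library was left out) no longer passed on leaving out any of 3 libraries, and the fall of Atg4d on leaving out any of 4. The largest of the rises was that of Atg10, the E2-like enzyme for ATG12, with 11.8, 10.6 and 14.5 CPM against 7.28, 5.40 and 7.70 CPM (log2 0.85 ± 0.15 SE, adjusted p = 0.000254). Atg16l1, the partner that places the ATG12-ATG5 conjugate on the membrane, was at 14.4, 14.8 and 16.1 CPM against 32.3, 38.7 and 30.7 CPM (log2 -1.17 ± 0.17 SE, adjusted p = 5.02e-05).

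With all libraries 3 of the 5 ATG8 genes passed the test, and these rose. Map1lc3b was at 117, 143 and 126 CPM with defactinib against 82.6, 81.2 and 81.8 CPM (log2 0.65 ± 0.13 SE, adjusted p = 0.000433). Gabarapl1 was at 195, 179 and 148 CPM against 125, 119 and 138 CPM (log2 0.45 ± 0.13 SE, adjusted p = 0.00722), and Gabarap rose by 0.33 (adjusted p = 0.0411), which no longer passed on leaving out any of 10 of the 18 libraries. The 3 genes did not overlap between the groups, but overlap was not counted over all genes. Map1lc3a and Gabarapl2 had log2 changes of 0.18 and 0.10 and did not pass the test.

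**Figure D4:**
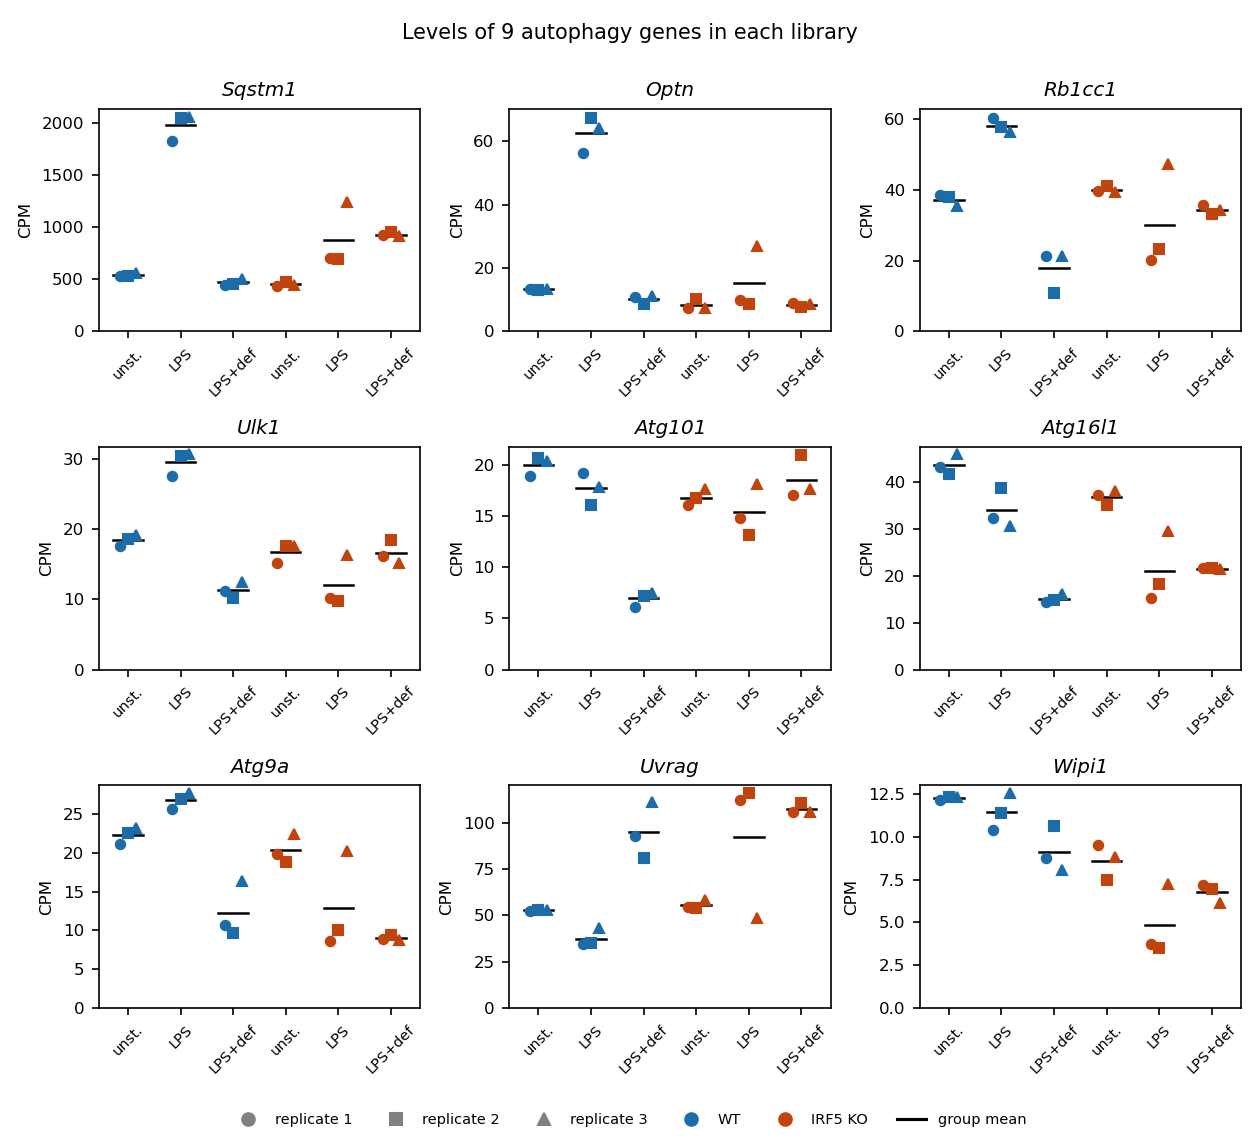
CPM of 9 autophagy genes in each library (points; symbols give the replicate number, blue WT, orange IRF5 KO) with the mean of each group (line), for unstimulated cells (unst.), LPS with DMSO (LPS) and LPS with defactinib (LPS+def). In IRF5 KO cells with LPS and DMSO the triangle of replicate 3 lies away from the other 2 libraries in each panel except that of Atg101, where the gap is smaller.

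In IRF5 KO cells the LPS response depended on which of the LPS DMSO libraries were used. With all 3, 8 of 37 genes rose and 8 fell, where 18.5% of all genes rose and 19% fell, and edgeR called 0 where it called 13.3% of all genes. DESeq2 also called 0, and 20 genes had an unadjusted p below 0.05 in edgeR. Sqstm1 was at 439, 477 and 446 CPM before LPS and at 701, 694 and 1243 CPM after it (log2 0.95 ± 0.16 SE, adjusted p = 0.00129). The change was 0.62 without replicate 3 and 1.47 with replicate 3 alone. Optn was at 7.32, 10.1 and 7.30 CPM before and 9.94, 8.56 and 27.0 CPM after LPS (log2 0.89 ± 0.31 SE, adjusted p = 0.0347). It was 0.17 and did not pass without replicate 3, and reached 1.73 with replicate 3 alone. Replicate 3 was thus the highest of the 3 for both receptors.

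For other genes replicate 3 lay near the unstimulated level. Uvrag was at 54.6, 53.8 and 58.1 CPM before LPS and 112, 116 and 48.5 CPM after it, with a log2 change of 0.73 that became 1.04 without replicate 3 and -0.18 with it alone. Atg9a was at 19.9, 18.9 and 22.4 CPM before and 8.58, 10.1 and 20.2 CPM after (log2 -0.65, then -1.13 and 0.0039). Becn1 was at 102, 104 and 97.3 CPM before and 165, 163 and 106 CPM after, and Map1lc3b at 88.0, 82.2 and 85.5 CPM before and 116, 116 and 76.1 CPM after. Without replicate 3, 14 genes rose and 10 fell, and 4 were called, Uvrag upward and Wipi1, Atg9a and Atg16l1 downward, where 28% of all genes rose, 30.3% fell and 26.2% were called. With replicate 3 alone 2 rose and 0 fell, and the 2 called were Sqstm1 and Optn, where 4% of all genes rose, 0.76% fell and 2.71% were called.

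**Figure D5:**
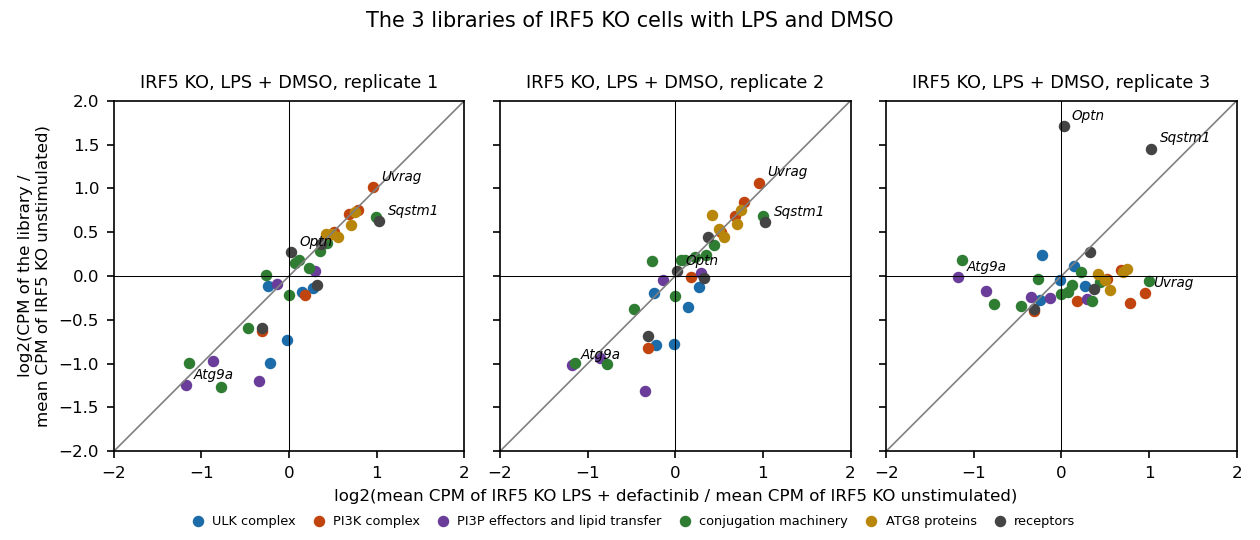
Log2 change from the mean of IRF5 KO unstimulated in each IRF5 KO LPS DMSO library (vertical) against that in the mean of IRF5 KO LPS defactinib (horizontal), for the 37 genes. Replicates 1 and 2 lie along the diagonal, while in replicate 3 most genes lie near 0 and Optn and Sqstm1 lie above 1.

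The count for defactinib in IRF5 KO cells also depended on which LPS DMSO libraries were used. With all 3, 1 of the 37 genes rose and 0 fell, where 1.87% of all genes rose and 1.49% fell, and edgeR called 0, where it called 0.919% of all genes. DESeq2 also called 0, with 4 genes higher, and 12 genes had an unadjusted p below 0.05 in edgeR. The gene that rose was Atg13, the adaptor of the ULK complex, with 41.9, 43.4 and 42.5 CPM against 32.1, 32.3 and 32.5 CPM (log2 0.40 ± 0.10 SE, adjusted p = 0.0489). It no longer passed on leaving out any of 15 of the 18 libraries, though without replicate 3 of IRF5 KO LPS DMSO it passed (0.40, adjusted p = 0.0354), as it did with replicate 3 alone (0.37, adjusted p = 0.0461). Sqstm1 had a log2 change of 0.07 ± 0.16 SE (919, 947 and 910 CPM with defactinib) and Optn of -0.86 ± 0.31 SE (9.01, 7.55 and 8.55 CPM, adjusted p = 0.114). Without replicate 3 of IRF5 KO LPS DMSO 8 genes rose and 0 fell, among them Wipi1 (log2 0.90), Ulk1 (0.73) and Sqstm1 (0.41), where 5.62% of all genes rose and 2.21% fell. By edgeR 0 of the 37 were called, with 13 at an unadjusted p below 0.05, where 1.45% of all genes were called. With replicate 3 alone 14 rose, 6 fell and 6 were called, where 17.6% of all genes rose, 23.4% fell and 19.2% were called. The change of Sqstm1 was then -0.44, so its direction turned with the libraries used. Optn had -0.14 (adjusted p = 0.604) without replicate 3 and was called with replicate 3 alone, at -1.70 (adjusted p = 8.03e-07).

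Whether the effect of defactinib differed between the genotypes was tested as an interaction, the log2 change in WT minus that in IRF5 KO. It passed the test as higher for 7 of 37 genes and as lower for 11, where 18.4% and 18.5% of all genes did, and 9 were called, where 22.8% of all genes were. Without replicate 3 of IRF5 KO LPS DMSO these counts were 13, 14 and 12 (26.9%, 27% and 31.6% of all genes), and with replicate 3 alone 3, 14 and 8 (16.6%, 15.8% and 19.1%). Sqstm1 had the largest difference, -2.15 ± 0.23 SE (adjusted p = 4.96e-06), and it was -2.49 without replicate 3 and -1.62 with replicate 3 alone. In the ULK complex Rb1cc1 was at -1.89 ± 0.37 SE (-2.37 and -1.22), Ulk1 at -1.84 ± 0.23 SE (-2.12 and -1.38) and Atg101 at -1.62 ± 0.19 SE (-1.76 and -1.35). For these 4 genes and for Pik3r4 (-1.24, then -1.36 and -1.01) the difference was called with each choice of libraries. IRF5 KO levels under defactinib were 35.7, 33.1 and 34.3 CPM for Rb1cc1, 16.2, 18.4 and 15.1 CPM for Ulk1 and 17.1, 21 and 17.6 CPM for Atg101.

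The other called differences were those of Optn (-1.75 ± 0.43 SE), Atg16l1 (-1.20 ± 0.25 SE), Uvrag (1.13 ± 0.32 SE) and Atg16l2, a paralogue of Atg16l1 (1.06 ± 0.34 SE). They were called also without replicate 3 (-2.47, -1.52, 1.43 and 1.09) and were not called with replicate 3 alone (-0.89, -0.68, 0.23 and 1.01). Atg16l2 was at 2.60, 3.01 and 5.11 CPM with defactinib and 1.67, 2.79 and 1.98 CPM with DMSO in WT, and at 3.71, 3.83 and 3.72 CPM with defactinib in IRF5 KO. With replicate 3 alone Pik3c3 (-1.06), Atg14 (-1.08) and Ambra1 (-1.06) were called instead.

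The LPS response differed between the genotypes for fewer genes. As LPS in WT minus LPS in IRF5 KO, 4 of 37 genes were higher and 5 lower, where 9.77% and 7.35% of all genes were, and 3 were called, where 9.83% of all genes were. Optn had a difference of 1.35 ± 0.43 SE (adjusted p = 0.0430), Ulk1 of 1.16 ± 0.23 SE (adjusted p = 0.00348) and Uvrag of -1.23 ± 0.32 SE (adjusted p = 0.0171). Sqstm1 had 0.91 ± 0.23 SE (adjusted p = 0.0145). Without replicate 3 of IRF5 KO LPS DMSO 11 genes were higher and 13 lower, and 8 were called, among them Optn (2.06), Ulk1 (1.43), Uvrag (-1.54) and Sqstm1 (1.25), where 25.3% of all genes were higher, 21.4% lower and 23.6% called. With replicate 3 alone 1 gene, Ulk1 (0.70, adjusted p = 0.0159), was higher and 0 were lower. By edgeR 0 were then called, with 9 genes at an unadjusted p below 0.05, where 5.15% of all genes were higher, 7.01% lower and 6.48% called. Optn was then at 0.50, Uvrag at -0.32 and Sqstm1 at 0.39, none of which passed. DESeq2 called 4 with all libraries.

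Before LPS no gene of the 37 differed between the genotypes by more than 2-fold. Of 16 receptors for organelles outside the 37, 2 were called, 1 higher and 1 lower in WT. In the fit over all libraries 1 of the 37 was higher and 0 lower in WT, where 7.93% and 7.37% of all genes were. By edgeR and by DESeq2 0 were called, where 7.31% of all genes were by edgeR, and 6 had an unadjusted p below 0.05. Atg3 was at 159, 155 and 170 CPM in WT and 92.0, 86.8 and 88.8 CPM in IRF5 KO (log2 0.85 ± 0.11 SE, adjusted p = 6.54e-05). It passed as higher in WT in all 3 comparisons of the genotypes, with log2 differences of 0.40 after LPS (0.27 without replicate 3 of IRF5 KO LPS DMSO and 0.69 with it alone) and 0.64 after LPS with defactinib. Optn, at 13.1 to 13.4 CPM in WT and 7.30 to 10.1 CPM in IRF5 KO, did not overlap and did not pass (log2 0.69 ± 0.31 SE, adjusted p = 0.157). The count moved with the IRF5 KO LPS DMSO libraries, which this comparison does not use. Without replicate 3 of that group 7 genes were higher and 3 lower, where 13.1% and 12.2% of all genes were, and with replicate 3 alone 6 were higher and 3 lower, where 12.2% and 10.8% of all genes were. Wipi1 then also passed as higher in WT in all 3 comparisons of the genotypes, with either choice. Optn passed before LPS in both, at 0.69 (adjusted p = 0.000675) and 0.70 (adjusted p = 0.00091). By edgeR 0 of the 37 were called in either, with 13 and 12 at an unadjusted p below 0.05.

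After LPS 10 of 37 genes were higher and 13 lower in WT than in IRF5 KO, where 25.3% and 26.9% of all genes were, and 7 were called, where 25.8% of all genes were. Higher in WT were 5 of these, given with the values without replicate 3 and with replicate 3 alone in parentheses. Optn had a log2 difference of 2.04 ± 0.31 SE (2.75 and 1.19), Ulk1 of 1.29 ± 0.16 SE (1.57 and 0.84) and Wipi1 of 1.24 ± 0.22 SE (1.66 and 0.64). Sqstm1 had 1.17 ± 0.17 SE (1.5 and 0.65) and Atg9a 1.05 ± 0.25 SE (1.53 and 0.39), and Atg9a did not pass with replicate 3 alone (adjusted p = 0.167). Wipi1, which binds PI3P, was at 10.4, 11.4 and 12.6 CPM in WT and 3.76, 3.47 and 7.26 CPM in IRF5 KO. Lower in WT were Uvrag at -1.30 ± 0.23 SE (-1.61 and -0.39) and Atg16l2 at -1.13 ± 0.24 SE (-1.17 and -1.06), the latter at 1.67, 2.79 and 1.98 CPM against 4.56, 5.09 and 4.42 CPM. Without replicate 3, 13 genes were higher and 17 lower, and 11 were called, these 7 and Rb1cc1, Atg14, Atg4d and Atg16l1, where 33% of all genes were higher, 32.4% lower and 34.5% called. With replicate 3 alone 8 were higher and 6 lower, and 2 were called, Optn and Atg16l2, where 15.7% of all genes were higher, 17.2% lower and 16% called.

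After LPS with defactinib 5 genes were higher and 12 lower in WT than in IRF5 KO, where 18.3% and 18% of all genes were, and 3 were called, where 17.3% of all genes were. All 3 were lower in WT. Within WT LPS defactinib replicates 2 and 3 had a median absolute log2 difference of 0.324 over the 37 genes, with 15.2% of all genes beyond 2-fold, and 1 gene was called without replicate 2 (16% of all genes) and 7 without replicate 3 (16.2% of all genes). Atg101 was at 6.12, 7.19 and 7.50 CPM in WT and 17.1, 21 and 17.6 CPM in IRF5 KO (log2 -1.42 ± 0.13 SE, adjusted p = 7.63e-07). Atg14 was at 11.5, 8.35 and 11.1 CPM and 21.3, 22.3 and 22 CPM (log2 -1.09 ± 0.22 SE, adjusted p = 0.00114). Pik3r4 was at 10.6, 8.66 and 9.92 CPM and 21.1, 18.8 and 19.2 CPM (log2 -1.02 ± 0.12 SE, adjusted p = 8.43e-06). Sqstm1, at 449 to 506 CPM in WT and 910 to 947 CPM in IRF5 KO, was lower in WT by a log2 difference of -0.98 ± 0.16 SE that lay just inside 2-fold.

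Counts within WT moved with these libraries too. The fit takes 1 estimate of the spread from all groups, and without replicate 3 the number of tested genes was 16037 in place of 15663. The part of each was not tested. Without replicate 3 the LPS response of WT had 9 genes higher and 14 lower and that to defactinib had 16 higher and 14 lower, with 2 and 8 called. Among all genes 25.5% were then higher and 26.6% lower with LPS, with 23.1% called, and 32.9% were higher and 31.7% lower with defactinib, with 30.7% called.

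Further genes of the pathway, in lists set apart from the 37, were read in the same fit. Their counts stand beside the shares of all genes given above for WT cells, 20.6% higher, 21.2% lower and 21.3% called with LPS and 28.4%, 28.6% and 29.1% with defactinib. Of 10 transcription factors of autophagy genes, 0 rose and 7 fell with defactinib in WT cells, and 6 were called, with a median log2 change of -1.44. The lowest was Nfe2l2, which encodes the oxidative stress factor NRF2, at 79.6, 51.5 and 50.3 CPM with defactinib against 298, 277 and 293 CPM with DMSO (log2 -2.26 ± 0.14 SE, adjusted p = 1.02e-08). Mitf, a factor of the TFEB family, followed at -1.94 ± 0.28 SE. With LPS in WT cells 3 of these 10 rose and 4 fell, and Mitf rose by 2.03 ± 0.28 SE while Tfeb, the main activator of lysosome genes, fell from 38.5, 36.3 and 41.9 CPM to 5.57, 5.96 and 6.48 CPM (log2 -2.70 ± 0.32 SE, adjusted p = 7.06e-06).

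Of 26 genes of mTORC1, AMPK and nutrient sensing, 1 rose and 14 fell with LPS in WT cells, and 8 rose and 4 fell with defactinib. Ddit4, an inhibitor of mTORC1, had log2 changes of -2.27 ± 0.40 SE with LPS and 3.48 ± 0.41 SE with defactinib. Prkaa2, a catalytic subunit of AMPK, rose by 2.61 with LPS from a low level (0.0936 to 0.389 CPM before and 0.915 to 1.64 CPM after), and Rraga, a Rag GTPase that recruits mTORC1 to the lysosome, fell by 1.40 with defactinib. Of the 9 tested genes of further autophagy machinery 2 rose and 3 fell with LPS, with Rubcn, an inhibitor of autophagosome maturation, at -1.41 ± 0.26 SE and Atg9b at -1.26 ± 0.37 SE. With defactinib 3 rose and 3 fell. Tbk1, the kinase of optineurin, was at 51.8, 33.5 and 54.8 CPM with defactinib against 157, 170 and 171 CPM with DMSO (log2 -1.83 ± 0.13 SE, adjusted p = 4.24e-08), and Nrbf2, a subunit of the Beclin 1 complex, fell by 1.44.

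Of 14 genes of fusion with the lysosome 2 rose and 5 fell with LPS, and 8 rose and 4 fell with defactinib. Those called were Plekhm1, an adaptor of fusion, with LPS (-1.17 ± 0.24 SE), and Vps18, a subunit of the tethering complexes of late endosomes (-2.21 ± 0.52 SE), and the SNARE gene Snap29 (-1.40 ± 0.18 SE) with defactinib. Of 16 receptors for organelles 2 rose and 2 fell with LPS and 6 rose and 2 fell with defactinib, and 0 were called in either comparison.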

How the data were processed

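RNA-seq counts of WT and IRF5 KO BMDMs were used, in 6 groups of 3 libraries set by the labels, and all 18 libraries entered 1 fit. The deposited values are counts per gene of read pairs that mapped to 1 place, not normalized. According to the authors' methods, the submitters' processing notes and the header, STAR was used for alignment to mm10 and featureCounts 1.6.3 for counting over exons, reverse stranded and at a minimum mapping quality of 255, so reads shared with a near-identical copy were not counted and levels of such genes may be too low. Symbols were taken from GENCODE M21 and matched 50376 of 50600 gene IDs. Depth was 39282181 to 61949143 counted pairs, and the test takes counting error and replicate spread together.

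The test was edgeR's quasi-likelihood F test (edgeR 4.0.16, R 4.3.3, two-sided) with TMM, filterByExpr, a robust fit of 1 mean per group and Benjamini-Hochberg adjustment over 15663 tested genes, which hold all 37 autophagy genes. Genes "rose" or "fell" at an adjusted p below 0.05 and were "called" when the fold change was also above 2. CPM and RPKM were computed here from TMM-scaled library sizes and, for RPKM, the exon length in the table. SE is the size of the log2 change divided by the square root of F, and SD is over 3 libraries. Values per library are given for genes called in at least 1 comparison and for Map1lc3b, Sqstm1, Gabarapl1, Ulk1 and Becn1, and for the other genes named those with the largest changes. From each further list the called genes with the largest changes are named, and other genes named for their role (Atg10, Tax1bp1 and Atg13, for example) were chosen after their values were seen. The members and lists were chosen with earlier results of these data known. Promoter sequence is from RefSeq on GRCm38.p6. The replicate numbers were not taken as pairs: residuals of libraries with the same number had a median correlation of 0.0046 over 45 pairs and were above 0.1 in 4. Alternatives were DESeq2 1.42.0, its size factors within edgeR, scaling by library size alone, no filter, a replicate block, no fold change threshold and leaving out each library. The fit with replicate 3 alone was added after the data were seen. The script was tested on simulated data.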

Additional observations from a re-analysis of the deposited data

Results flagged for a closer look

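For 9 autophagy genes the effect of defactinib after LPS differed between WT and IRF5 KO cells, by the test of the difference itself and at more than 2-fold, where 22.8% of all 15663 genes were called, a share near that of the 37. As log2 differences (WT minus IRF5 KO) these were -2.15 for Sqstm1, -1.89 for Rb1cc1, -1.84 for Ulk1, -1.75 for Optn, -1.62 for Atg101, -1.24 for Pik3r4, -1.20 for Atg16l1, 1.13 for Uvrag and 1.06 for Atg16l2. The difference of Atg16l2 no longer passed without replicate 1 of WT LPS DMSO or without replicate 3 of WT LPS defactinib.

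The effect of LPS differed in the same way for 3 genes, Optn at 1.35, Ulk1 at 1.16 and Uvrag at -1.23, where 9.83% of all genes were called. The difference of Optn lost its call on leaving out any of 16 of the 18 libraries. The values rest on the IRF5 KO LPS DMSO libraries that stood apart from each other. With replicate 3 of that group alone 0 of the 3 LPS differences were called, while without it 8 genes were called. Of the 9 differences with defactinib, those of Optn, Atg16l1, Uvrag and Atg16l2 were not called with replicate 3 alone. Single libraries within the groups of 3 were not tested as outliers.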

How the results depend on the processing

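Of 147 results, DESeq2's size factors, DESeq2 and the fit without a filter turned no direction of those that passed in that fit or the main one. Under these settings 7, 3 and 14 of the 147 no longer passed. Among these were Gabarapl1 with LPS in WT (both DESeq2 settings), Gabarap with defactinib in WT (all 3), Nbr1 and Calcoco1 with defactinib in WT (size factors and no filter), and Optn with LPS in IRF5 KO and in the interaction with LPS (no filter). Without a filter 5 genes were called for WT against IRF5 KO after LPS with defactinib (3 with it). With no fold change threshold the counts were 14 for LPS in WT, 16 for LPS in IRF5 KO, 27 for defactinib in WT, 1 for defactinib in IRF5 KO, 1, 23 and 17 for the genotypes before LPS, after LPS and after LPS with defactinib, and 18 and 9 for the interaction with defactinib and that with LPS.

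Scaling by library size alone gave medians of all genes from -0.38 (LPS in WT) to 0.45 (interaction with defactinib), where TMM gave -0.0045 and 0.12. It gave 4 called genes for LPS in WT, 2 for LPS in IRF5 KO and 1 for the interaction with LPS, and turned Becn1 (-0.0152) and Calcoco1 (-0.0458) with LPS in WT.

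With IRF5 KO LPS DMSO replicate 3 alone, 2 genes were called for LPS in IRF5 KO, 6 for defactinib in IRF5 KO, 2 for the genotypes after LPS and 0 for the interaction with LPS. It turned the sign of 16 genes for LPS in IRF5 KO, 7 for defactinib in IRF5 KO, 14 for the genotypes after LPS, 9 for the interaction with defactinib and 10 for that with LPS. Those that passed in at least 1 of the 2 fits were Uvrag (-0.18), Atg9a (0.0039), Atg12 (-0.0475) and Gabarapl1 (-0.0267) for LPS in IRF5 KO, Sqstm1 (-0.44) and Atg16l1 (-0.47) for defactinib in IRF5 KO, Becn1 (0.39), Gabarap (0.30), Atg14 (0.0049), Atg12 (0.0748) and Map1lc3b (0.0875) for the genotypes after LPS, and Atg4d (0.64) for the interaction with defactinib. Leaving out 1 library at a time gave 2 to 2 called genes for LPS in WT, 0 to 4 for LPS in IRF5 KO, 7 to 8 for defactinib in WT, 0 to 1 for defactinib in IRF5 KO, 0 to 0, 6 to 11 and 1 to 7 for the genotypes, and 7 to 12 and 2 to 8 for the interactions.

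With the replicate number as a block the called genes were 2, 0, 8, 0, 0, 8, 3, 9 and 3 in the 9 comparisons in this order. The causes were not tested. The least abundant gene, Atg16l2, was at 1.67 CPM in its lowest library, and the part of depth in its results was not tested.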
